A study of Rattus norvegicus with 20 samples.

Results

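Mesenteric artery from WKY/Izm rats with a 2-kidney, 1-clip operation (2K1C) was compared with mesenteric artery from WKY/Izm rats that had no operation. The 8 arrays were chosen by sample title, 4 per group, out of the 20 arrays of the series. In the 2K1C group 1 kidney's artery carries a clip and the other kidney is left in place, and the labels give 3 weeks for the operation and 6 weeks for the age. They do not settle whether that age is the age at operation or at sampling. Both groups were WKY/Izm, a normotensive strain, with the same age in the labels, and the titles call the 4 arrays of a group biological replicates. The labels used here name no sham-operated group, so clipping, surgery and recovery cannot be told apart. A further group of 4 arrays, WKY/Izm rats with a 1-kidney, 1-clip operation (1K1C, which leaves the clipped kidney alone) for 3 weeks at 6 weeks, was set beside 2K1C. The 8 arrays of the hypertensive SHR and SHRSP strains entered only the shared estimate of the spread between replicates and the choice of the probes tested.

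A narrowed renal artery lowers the pressure that the kidney senses, and that kidney activates the renin-angiotensin system. Angiotensin-converting enzyme makes angiotensin II, the system's effector, which contracts smooth muscle and drives its growth through the AT1 receptor. The 2K1C rat is a standard model of renovascular hypertension, and small mesenteric arteries are resistance vessels whose wall thickens under raised pressure. A whole mesenteric artery holds smooth muscle, endothelium, adventitial fibroblasts and sympathetic nerve fibres, and lies in fat.

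Each value below is a log2 level: the log2 processed signal of a gene's probe minus the log2 of the 75th percentile of signal on that array, so that 0 means a signal at that percentile. Levels were compared between arrays for 1 probe at a time. The 75th percentile ran from 726 to 772 signal units on the 2K1C arrays and from 774 to 937 on the untreated WKY arrays. Of the non-control spots, 70.6% to 71.6% were well above background on 2K1C arrays, against 68.6% to 70.6% on untreated WKY arrays. The 4 2K1C arrays lay on 1 slide and the 4 untreated WKY arrays on another, together with 1K1C, so slide and operation cannot be told apart. The mean net signal of negative control spots was 26.8 to 27.6 on 2K1C arrays and 33.1 to 38.4 on untreated WKY arrays.

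Smooth muscle genes marked the tissue in both groups. The 15 tested of 16 contraction genes summed to 345 to 735 times the array's 75th percentile in 2K1C and to 321 to 755 times in untreated WKY. The 15 tested of 16 endothelial genes summed to 36.3 to 46.1 in 2K1C and to 24.4 to 49.1 in untreated WKY (1 endothelial marker, Sox17, was not well above background on all 4 arrays of any group). White adipocyte genes summed to 228 to 392 in 2K1C and to 296 to 821 in untreated WKY.

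Several arrays stood apart. Untreated WKY array 1 carried neuronal and brown fat signal far above the other arrays: its pan-neuronal genes summed to 193, against 4.14 to 28.9 on the other untreated WKY arrays, its noradrenergic neuron genes to 273, against 2.07 to 4.02, and its brown adipocyte genes to 177, against 14.03 to 22.1. On 2K1C array 4 the B and T lymphocyte genes summed to 110, against 2.58 to 10.6 on the other 2K1C arrays and 4.64 to 8.46 in untreated WKY. 2K1C array 1 had neuronal genes at 27.4, against 3.12 to 4.38 on the other 2K1C arrays. Untreated WKY array 4 correlated more closely with the 2K1C arrays (mean Pearson r over genes 0.9749) than with its own group (0.9615), whereas untreated WKY arrays 2 and 3 stood at 0.9543 and 0.9466 with 2K1C and at 0.9716 and 0.9673 with their group. Results below are therefore also given without 2K1C array 4 and untreated WKY array 1, where they moved, and the weight of untreated WKY array 4 is stated where it decides a count.

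**Figure D1:**
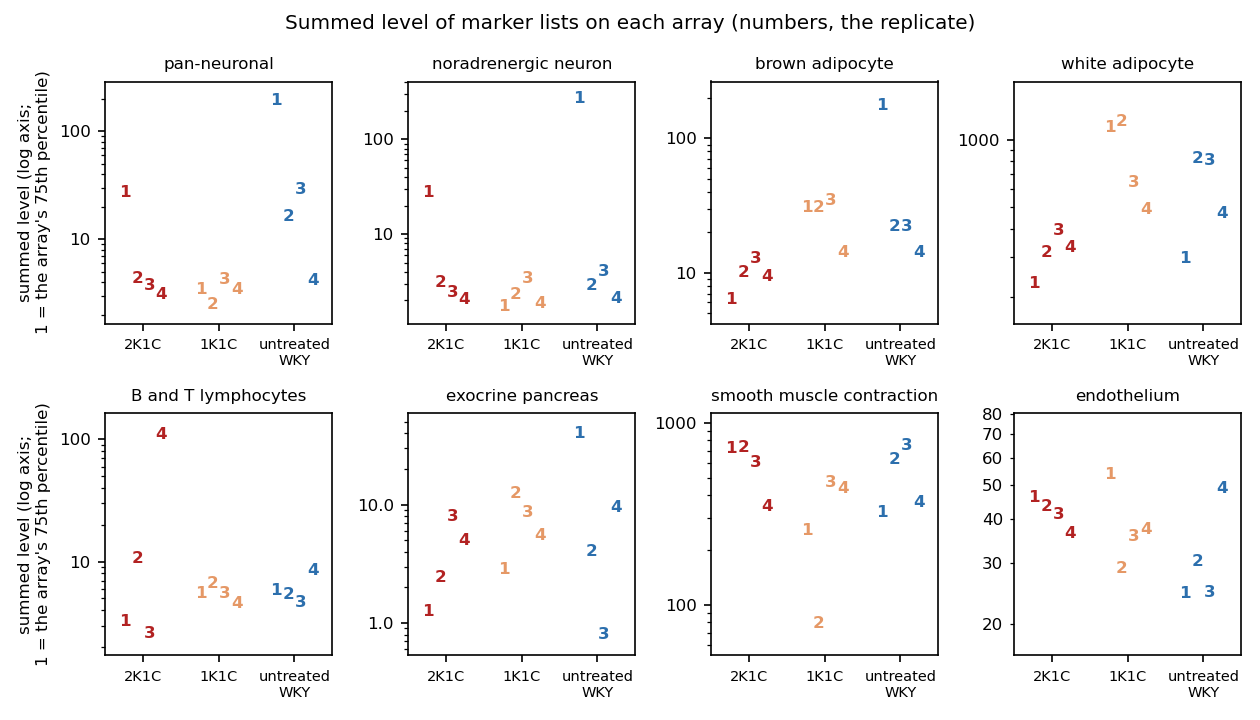
Summed level of 8 marker lists on each array, on a log axis where 1 is the array's 75th percentile. Numbers are replicates of 2K1C (left), 1K1C and untreated WKY (right). Untreated WKY array 1 lies highest for both neuronal lists and for brown adipocyte genes, and 2K1C array 4 lies highest for lymphocyte genes.

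Of 16410 genes tested, 2 passed an adjusted p of 0.05 between 2K1C and untreated WKY artery (0.0122%), both higher in 2K1C: the immediate early gene Ier2 and an unnamed transcript. An unadjusted p under 0.05 was reached by 3616 genes, of which 1773 were higher (10.8%) and 1843 lower (11.2%) in 2K1C, where 820 would be expected if no gene differed. In 606 genes every 2K1C array lay above every untreated WKY array (3.69%), and in 669 every one lay below (4.08%). The median difference over all genes was 0.03 on the log2 scale, and 301 genes had an adjusted p under 0.1.

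Ier2, immediate early response 2, encodes a nuclear protein that growth factors induce within minutes to hours. It was at 2.98, 1.95, 2.19 and 2.71 on the 2K1C arrays, against 0.81, 1.16, 1.03 and 1.48 on the untreated WKY arrays. The groups did not overlap. The 1K1C arrays, at 1.84, 1.65, 1.48 and 1.46, lay below all 2K1C arrays and, beside the highest untreated WKY array, overlapped that group. Ier2 rose by 1.34 ± 0.20 (SE) on the log2 scale, 2.53-fold, in 2K1C over untreated WKY, with an adjusted p of 0.0319. The second called transcript, probed by A_64_P035381, has no gene name in the files and no mapped position. It was at -3.85, -3.66, -3.98 and -4.16 on the 2K1C arrays, against -4.52, -4.94, -5.01 and -4.83 on the untreated WKY arrays, and it was well above background on all 8. It rose by 0.91 ± 0.14 (SE), 1.88-fold, with an adjusted p of 0.0319, and 1K1C stood 0.77 above untreated WKY.

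The probe sequences are printed because they are what the arrays measured of the only called transcripts, and for the unnamed one they are its only identity. The Ier2 probe lies at chr19:25160648-25160707 of rn4 on the plus strand.
Ier2 probe: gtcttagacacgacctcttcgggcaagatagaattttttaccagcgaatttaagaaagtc
A_64_P035381 probe: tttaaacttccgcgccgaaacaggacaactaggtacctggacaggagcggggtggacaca

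Neither call held under every setting. Ier2 passed in 12 of 22 alternatives, with differences of 1.11 to 1.51 and adjusted p from 0.00128 to 0.24, and A_64_P035381 in 14 of 22, with differences of 0.37 to 1.12 and adjusted p from 0.000197 to 0.24. Without 2K1C array 4 and untreated WKY array 1, the Ier2 difference was 1.15 with an adjusted p of 0.121. The count of calls rested on single arrays: 872 genes passed without untreated WKY array 4, 425 without 2K1C array 3, and none (2482, 2263 and 3173 at an unadjusted p under 0.05) without untreated WKY array 2, untreated WKY array 3 or 2K1C array 1.

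**Figure D2:**
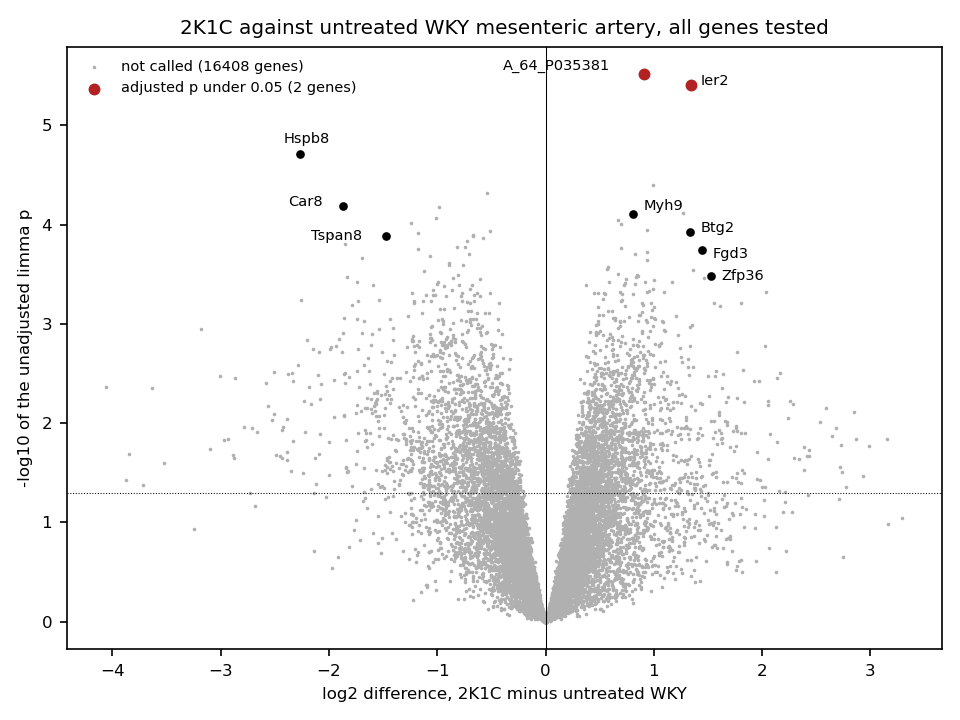
Each point is 1 of 16410 genes, with the log2 difference of 2K1C minus untreated WKY on the x axis and -log10 of the unadjusted limma p on the y axis; the dotted line marks 0.05. The 2 called genes are red, and black points are named genes that did not pass, with Hspb8 at -2.26 the lowest of them.

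Outside the 2 calls, the genes with the strongest separation in favour of 2K1C did not pass, each at an adjusted p of 0.0902. They were picked among genes whose 2K1C and untreated WKY arrays did not overlap, so that separation was set by the choice. Btg2, an antiproliferative early response gene, was at 2.17, 1.17, 1.29 and 1.83 in 2K1C, against 0.11, 0.36, 0.03 and 0.62 in untreated WKY, a difference of 1.33 ± 0.27 (SE). Myh9, the heavy chain of non-muscle myosin IIA, was at -1.65, -2.02, -1.99 and -1.84 in 2K1C, against -2.94, -2.71, -2.77 and -2.33 in untreated WKY, a difference of 0.81 ± 0.16. Both genes kept every 2K1C array above every untreated WKY array and every 1K1C array.

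Prkcd, a diacylglycerol-activated protein kinase C, differed by 0.94 (1.25 ± 0.32 in 2K1C and 0.31 ± 0.40 in untreated WKY; SD, n = 4 each, as for every ± that follows a mean). Smad7, the inhibitory Smad that TGF-beta signalling induces, averaged 0.81 ± 0.33 in 2K1C and -0.03 ± 0.29 in untreated WKY. Fgd3, of a family of exchange factors for the small GTPase Cdc42, averaged -0.05 ± 0.77 and -1.50 ± 0.31 in those groups. Fgd3 was highest on 2K1C arrays 1 and 2, at 0.72 and 0.48, and its groups did not overlap. Cxxc1, a CpG-binding subunit of the SET1 histone methyltransferase complex, differed by 0.67, the phosphatase gene Dusp18 by 0.70, Lypd2 by 0.70, the zinc finger gene Zfp263 by 0.82 and Defb36, a beta-defensin gene, by 0.58. Tbcel, a tubulin cofactor-like gene, was not well above background on any untreated WKY array, and was at least 1.91-fold higher in 2K1C. That bound takes the dim arrays at their measured signal and holds only on this scale. Under the alternatives the log2 difference of Tbcel ran from 0.25 to 1.00.

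The 12 genes with the strongest separation in favour of untreated WKY were also at an adjusted p of 0.0902. They too were picked among genes whose 2 groups did not overlap. Hspb8, a small heat shock protein that works with autophagy factors, was at -1.84, -2.50, -2.55 and -2.93 in 2K1C, against -0.40, 0.43, 0.80 and -1.59 in untreated WKY. Its difference was -2.26 ± 0.39 (SE), and 1K1C was 1.74 below untreated WKY too. Car8, a carbonic anhydrase homologue without catalytic activity that binds the inositol trisphosphate receptor, was at -2.96, -2.53, -2.45 and -2.49 in 2K1C, against -1.26, -0.24, 0.08 and -1.51 in untreated WKY. For Hspb8 and Car8 all 2K1C arrays lay below all untreated WKY arrays, of which array 4 was the lowest.

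The mitochondrial pyrimidine nucleotide carrier Slc25a33 averaged -2.61 ± 0.20 in 2K1C and -1.37 ± 0.54 in untreated WKY, and a second probe of it differed by -1.39. Tspan8, a tetraspanin, averaged -1.22 ± 0.37 and 0.25 ± 0.87 in those groups, and Smpd3, neutral sphingomyelinase, -0.21 ± 0.51 and 0.97 ± 0.30. The second Smpd3 probe differed by -0.21 only, against -1.17 for the one tested. Psmc5, an ATPase of the proteasome cap, was lower by a difference of -0.67 (4.12 ± 0.21 in 2K1C and 4.79 ± 0.20 in untreated WKY). Prps1, which makes phosphoribosyl pyrophosphate, differed by -0.72, Tmem199 by -0.99, Kctd6 by -0.67, Yipf1 by -0.58, Ssbp4 by -0.54 and Parp6 by -0.52, with -0.14 at the second Parp6 probe.

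**Figure D3:**
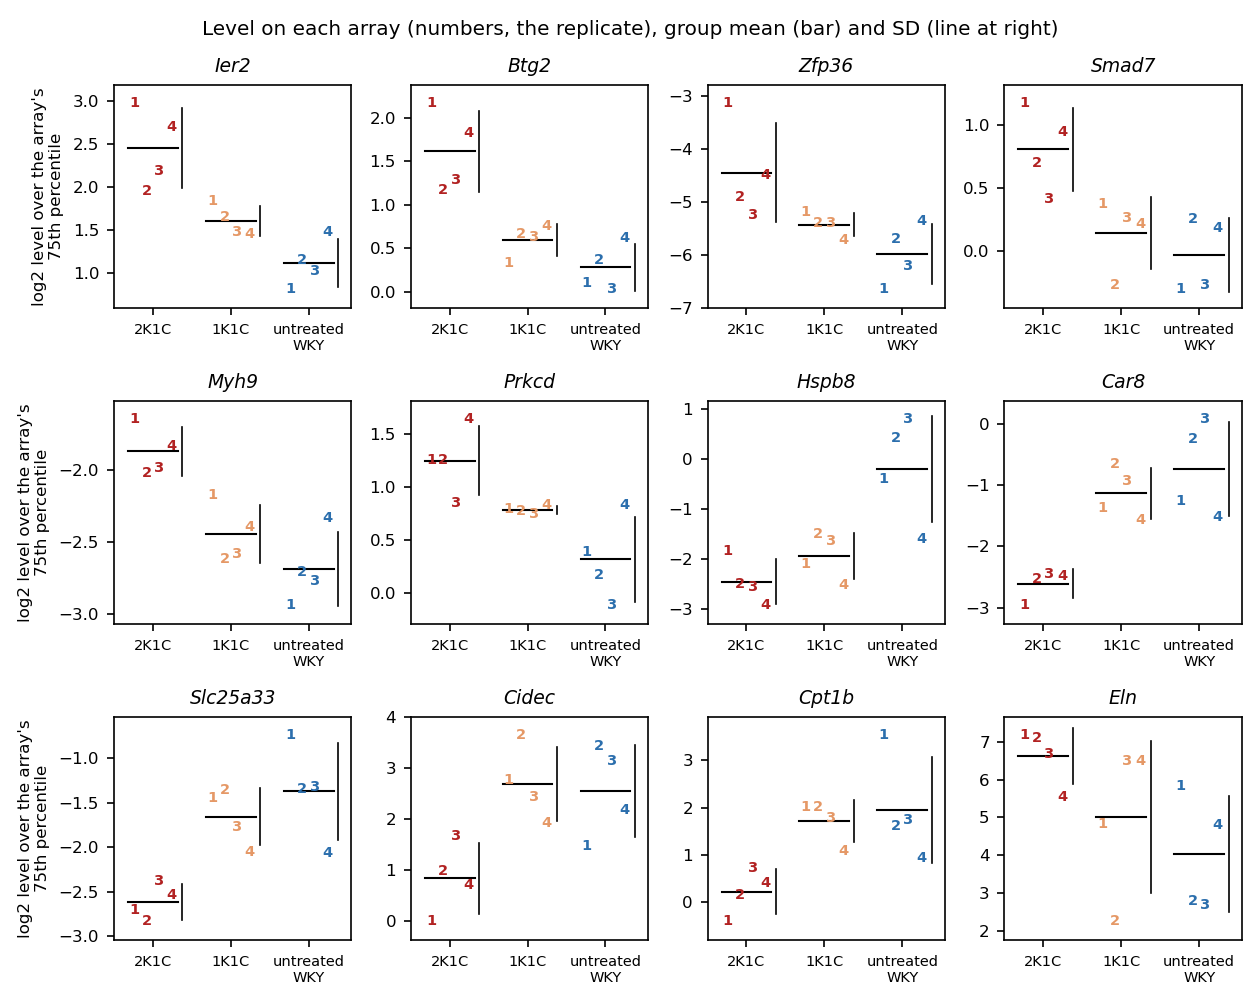
Log2 level over the array's 75th percentile of 12 genes on each array of 2K1C (left), 1K1C (middle) and untreated WKY (right); numbers are replicates, bars the group mean and lines the SD. All 4 2K1C arrays lie above all untreated WKY arrays for Ier2, Btg2, Zfp36, Smad7, Myh9 and Prkcd, and below them for Hspb8, Car8, Slc25a33 and Cpt1b, while Cidec and Eln overlap.

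Immediate early genes are transcribed without new protein synthesis after stretch, growth factors or calcium entry, and many encode transcription factors of the AP-1 and EGR families. Of 18 tested of 20 such genes, 16 had a positive difference, 1 passed the test (Ier2), and 8 had an unadjusted p under 0.05 in favour of 2K1C and 0 against it, beside 10.8% and 11.2% of all genes. Their median difference was 1.03, against 0.03 over all genes. This list and those below were chosen with earlier results of these data known. A list count above the share of all genes is therefore a description and no independent test. Zfp36, which binds AU-rich messages and speeds their decay, was at -3.14, -4.91, -5.26 and -4.49 in 2K1C, against -6.65, -5.70, -6.22 and -5.36 in untreated WKY, with an adjusted p of 0.0902. Only 1 of the untreated WKY arrays was well above background for it, and its difference of 1.53 fell to 0.43 at the lowest under the alternatives. Junb, an AP-1 subunit, was at 3.36, 1.02, 2.16 and 1.63 in 2K1C, against 0.51, 0.68, 1.04 and 0.98 in untreated WKY, a difference of 1.24 ± 0.34 (SE; adjusted p 0.0994).

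2K1C array 1 was the highest array for Ier2, Btg2, Zfp36 and Junb. Egr2, a zinc finger factor of the EGR family, averaged -3.87 ± 0.53 in 2K1C and -5.32 ± 0.99 in untreated WKY, where 2 of 4 arrays were well above background. The Egr2 difference of 1.45 fell to 0.47 at the lowest under the alternatives. Dusp1, a phosphatase that switches off MAP kinases, averaged -0.99 ± 0.96 in 2K1C and -1.92 ± 0.50 in untreated WKY. Fos, named after its value was seen, had the list's highest difference at 2.00 without passing (adjusted p 0.216), and the AP-1 gene Fosl2 the lowest at -0.13. Over the list, the summed level was 36.1 to 82.4 in 2K1C, against 23.2 to 33.6 in untreated WKY, with no overlap. The log2 level averaged over members did overlap, at -0.895 to 0.667 in 2K1C and -1.39 to -0.672 in untreated WKY. Without 2K1C array 4 and untreated WKY array 1, the median was 1.28, and over all alternatives it ran from 0.73 to 1.28. Without those 2 arrays, 11 members passed an unadjusted p of 0.05, beside 3550 of 16410 genes in either direction. The count of 8 was 5 without 2K1C array 1 or untreated WKY array 3, and 12 without 2K1C array 4.

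**Figure D4:**
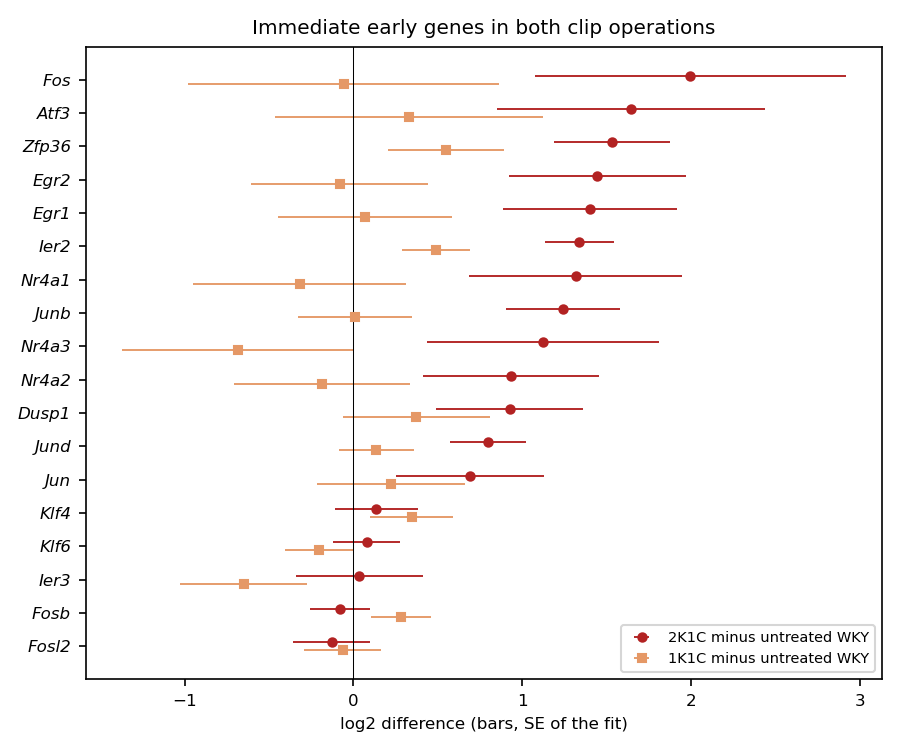
Log2 difference of 18 immediate early genes for 2K1C minus untreated WKY (red circles) and 1K1C minus untreated WKY (orange squares), with bars of 1 SE of the fit. Both differences share the untreated WKY arrays. For Fos, Atf3, Zfp36, Egr2, Egr1, Ier2, Nr4a1 and Junb the red circles lie above 1.2, and the list medians are 1.03 and 0.04.

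Promoters of these genes are shown because most of the list differed in the same direction and such genes are known for shared response elements. RefSeq promoters of the rat build GRCr8 (250 bases before to 50 after the gene start) were found for 14 of the 20 list members. A CArG box, the site of serum response factor, was searched by its consensus on both strands and lay in 4 of the 14 (Egr1, Egr2, Klf6 and Zfp36), against 1.64% of 27457 rat promoters. The palindromic cyclic AMP response element TGACGTCA lay in 3 of the 14 (Dusp1, Ier2 and Jund), against 1.91% of all. It also lay in the promoter of Btg2. Capitals mark these matches, which begin at -66 in Ier2, -201 in Btg2, -83 in Egr2 and -32 in Zfp36, counted from the gene start. A match describes these letters and does not show that a factor binds.
Ier2, chr19:40399123-40399422 on the plus strand: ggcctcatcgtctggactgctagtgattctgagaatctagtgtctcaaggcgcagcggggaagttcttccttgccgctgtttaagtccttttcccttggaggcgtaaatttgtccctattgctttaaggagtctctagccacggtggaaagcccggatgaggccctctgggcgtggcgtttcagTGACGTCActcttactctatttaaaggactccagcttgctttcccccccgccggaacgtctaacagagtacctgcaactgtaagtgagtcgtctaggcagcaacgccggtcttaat
Btg2, chr13:48087641-48087940 on the minus strand: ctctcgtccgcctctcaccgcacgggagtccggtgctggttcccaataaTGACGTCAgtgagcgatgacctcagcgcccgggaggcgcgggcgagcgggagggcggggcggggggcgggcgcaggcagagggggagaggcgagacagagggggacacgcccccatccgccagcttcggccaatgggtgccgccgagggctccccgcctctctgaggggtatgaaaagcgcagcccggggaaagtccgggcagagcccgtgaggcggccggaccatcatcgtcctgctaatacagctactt
Egr2, chr20:21054392-21054691 on the minus strand: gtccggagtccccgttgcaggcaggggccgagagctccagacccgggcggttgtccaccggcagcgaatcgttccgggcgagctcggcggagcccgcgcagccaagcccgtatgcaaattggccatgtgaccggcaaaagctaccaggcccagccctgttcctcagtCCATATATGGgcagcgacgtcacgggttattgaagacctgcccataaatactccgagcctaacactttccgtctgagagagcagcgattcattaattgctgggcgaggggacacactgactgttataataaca
Zfp36, chr1:92799059-92799358 on the minus strand: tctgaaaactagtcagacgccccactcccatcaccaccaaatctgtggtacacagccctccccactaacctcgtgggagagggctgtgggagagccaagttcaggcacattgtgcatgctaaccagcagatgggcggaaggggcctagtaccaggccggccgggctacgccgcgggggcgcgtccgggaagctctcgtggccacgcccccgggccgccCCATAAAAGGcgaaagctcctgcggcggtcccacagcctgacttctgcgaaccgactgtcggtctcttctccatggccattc

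Renin-angiotensin genes are expressed in the vessel wall as well as in kidney and liver. Of 17 tested of 18, none passed the test, 2 had an unadjusted p under 0.05 in favour of 2K1C and 3 against it (beside 10.8% and 11.2% of all genes), and the median difference was -0.43. That median depended on single arrays: it was -0.13 without 2K1C array 1, and -0.22, -0.28 and -0.23 without untreated WKY arrays 1, 2 and 3. On unscaled signal it was -0.66. Agtr1a, the main AT1 receptor gene of rat vessels, was at 0.18, -0.32, -0.51 and -0.26 in 2K1C, against 0.99, 0.58, 0.19 and 0.16 in untreated WKY (difference -0.71 ± 0.24, adjusted p 0.134). All but 1 of the 2K1C arrays lay below every untreated WKY array.

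Ace, which makes angiotensin II, was higher by 0.77 ± 0.30 (0.46 ± 0.48 in 2K1C and -0.31 ± 0.61 in untreated WKY), and Mme, the peptidase neprilysin, lower at -1.23 ± 0.50 (adjusted p 0.165 and 0.177). Agt, the angiotensinogen gene that perivascular fat also expresses, averaged 4.65 ± 0.33 in 2K1C and 5.28 ± 0.76 in untreated WKY. The second AT1 receptor gene Agtr1b differed by 0.90 ± 0.55, Mas1, the receptor for angiotensin 1-7, by 1.43 ± 0.87 (well above background on 3 of 4 2K1C and 2 of 4 untreated WKY arrays), the prorenin receptor gene Atp6ap2 by -0.43 ± 0.22 and the mineralocorticoid receptor gene Nr3c2 by 0.45 ± 0.29. The AT2 receptor gene Agtr2 was not well above background on any of the 8 arrays. None of these differences passed, and the list's summed level was 66.5 to 95.2 in 2K1C, against 79.8 to 160 in untreated WKY.

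Genes that angiotensin II or stretch induce in vascular cells had a median difference of 0.75 over 14 tested of 16. An unadjusted p of 0.05 was passed by 4 in favour of 2K1C and 0 against it, beside 10.8% and 11.2% of all genes. Under the alternatives other than array weights, 0 to 6 passed in favour. Without 2K1C array 1 there were 2, and without untreated WKY arrays 2 and 3 there were 1 and 0. Ccn1, a matricellular protein of the CCN family, was at 3.42, 1.43, 2.17 and 1.04 in 2K1C, against 0.37, 0.32, -0.35 and 1.53 in untreated WKY (difference 1.55 ± 0.57, adjusted p 0.151). Rcan1, an inhibitor of calcineurin that calcineurin signalling induces, averaged 3.27 ± 0.59 in 2K1C and 2.24 ± 0.68 in untreated WKY. The adhesion gene Vcam1 differed by 0.77 ± 0.32. None of the 14 passed the test.

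In the TGF-beta and BMP list, 16 of 18 tested genes had a positive difference, and 5 passed an unadjusted p of 0.05 in favour of 2K1C and 0 against it (10.8% and 11.2% of all genes), with a median of 0.34. The median was 0.22 without 2K1C array 1 and 0.12 unscaled. Besides Smad7, the dominant-negative helix-loop-helix genes Id2 and Id3, targets of BMP signalling, differed by 1.32 ± 0.37 and 0.88 ± 0.32 (adjusted p 0.103 and 0.148). Id3 was well above background on 2 of 4 untreated WKY arrays, and its difference was 0.21 with normexp and quantile. Id2 was at 2.04, 2.30, 1.72 and 1.62 in 2K1C, against 1.05, 0.22, -0.17 and 1.33 in untreated WKY, with no overlap. In the separate growth factor and receptor list, 2 of 19 tested passed an unadjusted p of 0.05 in favour of 2K1C and 4 against it. Its median was 0.05, and the same shares of all genes apply. Of that list, Hgf, well above background on 2 of 4 untreated WKY arrays, was higher by 1.26 ± 0.36. Pdgfrb, the receptor that marks pericytes and smooth muscle, was higher by 1.61 ± 0.53, while Vegfb differed by -0.98 ± 0.35. Adjusted p was 0.106 to 0.145 for those 3.

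Contractile genes had a share of differences near that of all genes. Of 15 tested, 12 had a positive difference, 2 passed an unadjusted p of 0.05 in favour of 2K1C and 1 against it (10.8% and 11.2% of all genes), and the median was 0.45. The median was 0.29, 0.29 and 0.79 without 2K1C arrays 1, 2 and 4, 0.28 without untreated WKY array 4, and 0.22 unscaled. Acta2, smooth muscle alpha-actin, was at 5.36, 5.24, 4.04 and 3.41 in 2K1C, against 3.58, 2.25, 2.89 and 3.25 in untreated WKY (difference 1.52 ± 0.61, adjusted p 0.173). Itga8, an integrin chain of smooth muscle, was at 3.55, 3.57, 3.25 and 1.73 in 2K1C, against 2.08, -1.40, -1.07 and 1.58 in untreated WKY. Untreated WKY arrays 2 and 3 held the 2 low Itga8 values.

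Among potassium channels, whose opening relaxes smooth muscle, 4 of 14 tested passed an unadjusted p of 0.05 in favour of 2K1C and 1 against it. These counts stand beside 10.8% and 11.2% of all genes. Under the alternatives other than array weights, 1 to 6 passed in favour (2 without untreated WKY array 2 or 3, 6 without untreated WKY array 4). Kcnq1, a voltage-gated channel, averaged 0.37 ± 0.79 in 2K1C and -1.88 ± 1.499 in untreated WKY. That difference was 2.25, and a second Kcnq1 probe gave 0.92. Abcc9, the sulphonylurea receptor of the vascular ATP-sensitive channel, differed by 0.75 ± 0.24 and the calcium-activated channel Kcnn4 by 1.41 ± 0.57. The lowest adjusted p of the 3 was 0.124. In the calcium handling list none of 20 tested genes passed an unadjusted p of 0.05.

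Elastic fibres give arteries their recoil. Of 19 tested of 20 elastic fibre genes, 4 passed an unadjusted p of 0.05 in favour of 2K1C and 1 against it, none passed the test, and the median was 0.41. The counts stood beside 10.8% and 11.2% of all genes, and the median was 0.19 without 2K1C array 1, 0.26 without untreated WKY array 1 and 0.18 unscaled. Eln, tropoelastin, was at 7.18, 7.09, 6.69 and 5.55 in 2K1C, against 5.84, 2.80, 2.70 and 4.81 in untreated WKY, a difference of 2.59 ± 0.85 (SE; adjusted p 0.126). Untreated WKY arrays 2 and 3 were low for Eln, and 1 of the 1K1C arrays was as low, at 2.25. Ltbp2, a latent TGF-beta binding protein of microfibrils, was at 0.16, 1.09, -0.24 and -0.40 in 2K1C, against -0.88, -2.32, -2.12 and -2.61 in untreated WKY (difference 2.14 ± 0.63, adjusted p 0.11). Efemp1, a fibulin, differed by -0.89 ± 0.30.

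Collagen genes had a median of 0.24, with 3 of 15 tested past an unadjusted p of 0.05 in favour of 2K1C, beside 10.8% of all genes. The median was 0.034, 0.16 and 0.47 without 2K1C arrays 1, 2 and 4, with 8 past that p in the last case, and 0.012 unscaled. Col18a1, a basement membrane collagen, averaged 2.86 ± 0.80 in 2K1C and 1.28 ± 0.65 in untreated WKY, Col8a1, which activated smooth muscle makes, 0.74 ± 0.83 and -1.03 ± 1.09, and the fibrillar chain Col1a2 6.60 ± 0.32 and 5.94 ± 0.42. Sparc, a collagen-binding glycoprotein, was at 7.95, 8.32, 7.86 and 7.30 in 2K1C, against 7.45, 7.18, 6.91 and 7.12 in untreated WKY (difference 0.69 ± 0.17, adjusted p 0.0935). The proteoglycan gene Bgn differed by 1.41 ± 0.52 and the glycoprotein tenascin C, Tnc, by -1.61 ± 0.75. Of the matrix metalloproteinase inhibitors, Timp4 differed by 0.68 ± 0.23 and Timp3 by 0.63 ± 0.22. Without 2K1C array 4 and untreated WKY array 1, 9 of 19 elastic fibre genes and 7 of 15 collagens passed an unadjusted p of 0.05 in favour of 2K1C, beside 1790 genes higher of 16410.

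Endothelial genes had a median of 0.34, with 12 of 15 positive and 2 past an unadjusted p of 0.05 in favour of 2K1C, where 10.8% of all genes were. Without untreated WKY array 4 the median was 0.54 with 7 past that p, and on unscaled signal it was 0.11. Nos3, endothelial nitric oxide synthase, was at 0.11, 0.08, -0.20 and -0.95 in 2K1C, against -1.12, -1.13, -1.35 and -0.12 in untreated WKY (difference 0.69 ± 0.33, adjusted p 0.233). Untreated WKY array 4 was the one high array of its group and 2K1C array 4 the one low. The endothelial transcription factor Erg differed by 0.69 ± 0.27, and the junction protein genes Esam and Pecam1 by 0.71 ± 0.33 and 0.59 ± 0.28. Endothelin-1, Edn1, differed by 0.12 ± 0.32, and its receptors Ednra and Ednrb by 0.47 ± 0.41 (a second Ednra probe gave 0.89) and 0.21 ± 0.27, where Edn1 and Ednrb turned negative when the signal was left unscaled.

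In the Notch and arterial identity list, 5 of 16 genes passed an unadjusted p of 0.05 in favour of 2K1C and 0 against it, beside 10.8% and 11.2% of all genes. Under the alternatives other than array weights, 1 to 7 passed in favour. There were 1 without 2K1C array 1 or untreated WKY array 2, 2 without untreated WKY array 3, 3 without 2K1C array 2 and 7 without 2K1C array 4. The arterial connexin Gja4 averaged 2.32 ± 0.65 in 2K1C and 0.89 ± 0.89 in untreated WKY, the smooth muscle receptor Notch3 -2.35 ± 0.79 and -3.30 ± 0.56, and Notch1 0.70 ± 0.34 and 0.09 ± 0.51. In the cytokine, chemokine and adhesion list, 4 of 18 tested passed an unadjusted p of 0.05 in favour of 2K1C and 0 against it. The same shares of all genes, 10.8% and 11.2%, stand beside these counts. Of that list, Icam1 averaged 0.79 ± 0.45 in 2K1C and -0.02 ± 0.50 in untreated WKY (adjusted p 0.103). Ccl19, a lymphoid chemokine, was at 0.73, 2.04, 0.35 and 4.63 in 2K1C, against 0.92, -1.54, -3.13 and 0.91 in untreated WKY, with its peak on 2K1C array 4, the array with the lymphocyte signal. The part of those lymphocytes in the result was not tested. Without that array and untreated WKY array 1 the median of the cytokine, chemokine and adhesion list was -0.04, against 0.59 with them. It was 0.10 without 2K1C array 4 alone and 0.35 without untreated WKY array 1 alone.

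Cell cycle genes rise in dividing cells. Of 25 tested, 24 had a positive difference in 2K1C, 12 passed an unadjusted p of 0.05 in favour of 2K1C and 0 against it (10.8% and 11.2% of all genes), and the median was 0.62. The count of 12 ran from 1 on unscaled signal to 21 without 2K1C array 1, was 6 without 2K1C array 4, 8 and 5 without untreated WKY arrays 2 and 3, and 18 without untreated WKY array 4, and the median ran from 0.40 to 0.80. Plk1, a mitotic kinase, was at -1.43, -1.30, -1.28 and -0.60 in 2K1C, against -2.08, -2.18, -2.32 and -1.48 in untreated WKY (difference 0.86 ± 0.21, adjusted p 0.0935). Cdc20, an activator of the anaphase-promoting complex, was at -1.48, -1.38, -1.36 and -1.32 in 2K1C, against -1.997, -2.09, -2.18 and -1.59 in untreated WKY. The proliferation antigen gene Mki67 differed by 0.79 ± 0.23. For both Plk1 and Cdc20 no array overlapped, and untreated WKY array 4 was the nearest to 2K1C.

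The summed cell cycle level was highest on 2K1C array 4, at 23.6, against 9.97 to 14.4 on the other 2K1C arrays and 6.62 to 11.3 in untreated WKY. Without that array and untreated WKY array 1, 23 of 25 were positive, with a median of 0.48. An unadjusted p of 0.05 was then passed by 8 of the 25, beside 3550 of 16410 genes in either direction. The same list stood at a median of 0.52 in 1K1C against untreated WKY, and at 0.10 in 2K1C against 1K1C, the last turning to -0.039 without 2K1C array 4. RefSeq promoters were found for 20 of the 25 genes: CCAAT lay on either strand in 15, against 37.7% of all rat promoters, and the cell cycle homology region TTTGAA in 10, against 18.1%.

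Fat genes leaned the other way. All 15 tested white adipocyte genes had a negative difference, with a median of -0.85. An unadjusted p of 0.05 was passed by 8, beside 11.2% of all genes lower, and the adjusted test by none. Under the alternatives other than array weights, 5 to 13 passed that unadjusted p. The count was 5 without 2K1C array 1, untreated WKY array 2 or untreated WKY array 3, and 13 without untreated WKY array 1. Cidec, a lipid droplet protein, was at -0.01, 0.99, 1.68 and 0.71 in 2K1C, against 1.48, 3.45, 3.14 and 2.17 in untreated WKY (difference -1.72 ± 0.53, adjusted p 0.116). Pparg, the master regulator of fat cells, was at 1.99, 2.94, 3.06 and 2.80 in 2K1C, against 3.48, 4.77, 4.64 and 3.63 in untreated WKY, with no overlap. Resistin, Retn, averaged 4.31 ± 0.60 and 5.39 ± 0.55 in those groups. In these bulk samples, fewer fat cells and less of each transcript per fat cell cannot be told apart.

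Fatty acid oxidation genes followed: 16 of 18 were negative, with a median of -0.76. An unadjusted p of 0.05 was passed by 12 against 2K1C and 2 in favour, beside 11.2% and 10.8% of all genes. The 12 ran from 7 to 14 under the alternatives. Cpt1b, the muscle and brown fat form of the enzyme that admits fatty acids to mitochondria, was at -0.41, 0.14, 0.72 and 0.41 in 2K1C, against 3.54, 1.60, 1.73 and 0.93 in untreated WKY. The groups did not overlap, and untreated WKY array 1 was the highest. Hadhb, a subunit of the trifunctional protein, differed by -1.04 ± 0.29 and the lipid-sensing receptor Ppara by -1.29 ± 0.37 (adjusted p 0.102 and 0.11). The brown fat genes Cidea and Ppargc1a differed by -1.46 ± 0.41 and -0.99 ± 0.32, and Ppara and Ppargc1a were well above background on 3 and 2 of the 4 2K1C arrays.

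Summed fatty acid oxidation level was 59.0 to 82.7 in 2K1C, against 88.8 to 135 in untreated WKY. The log2 level averaged over members overlapped, at 0.174 to 0.544 in 2K1C and 0.539 to 1.37 in untreated WKY. Without 2K1C array 4 and untreated WKY array 1 the white adipocyte median was -1.21, with 12 of 15 past an unadjusted p of 0.05. That of fatty acid oxidation was -0.52, with 7 of 18. In the same setting 3550 of 16410 genes passed that p, in either direction. Cd163, a marker of resident macrophages, differed by -1.38 ± 0.51, and Adrb3, the beta receptor of fat cells, by -0.999 ± 0.53. Insig1, which restrains sterol synthesis, was at 1.15, 1.60, 2.16 and 1.06 in 2K1C, against 1.87, 3.83, 3.77 and 2.78 in untreated WKY (adjusted p 0.132).

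**Figure D5:**
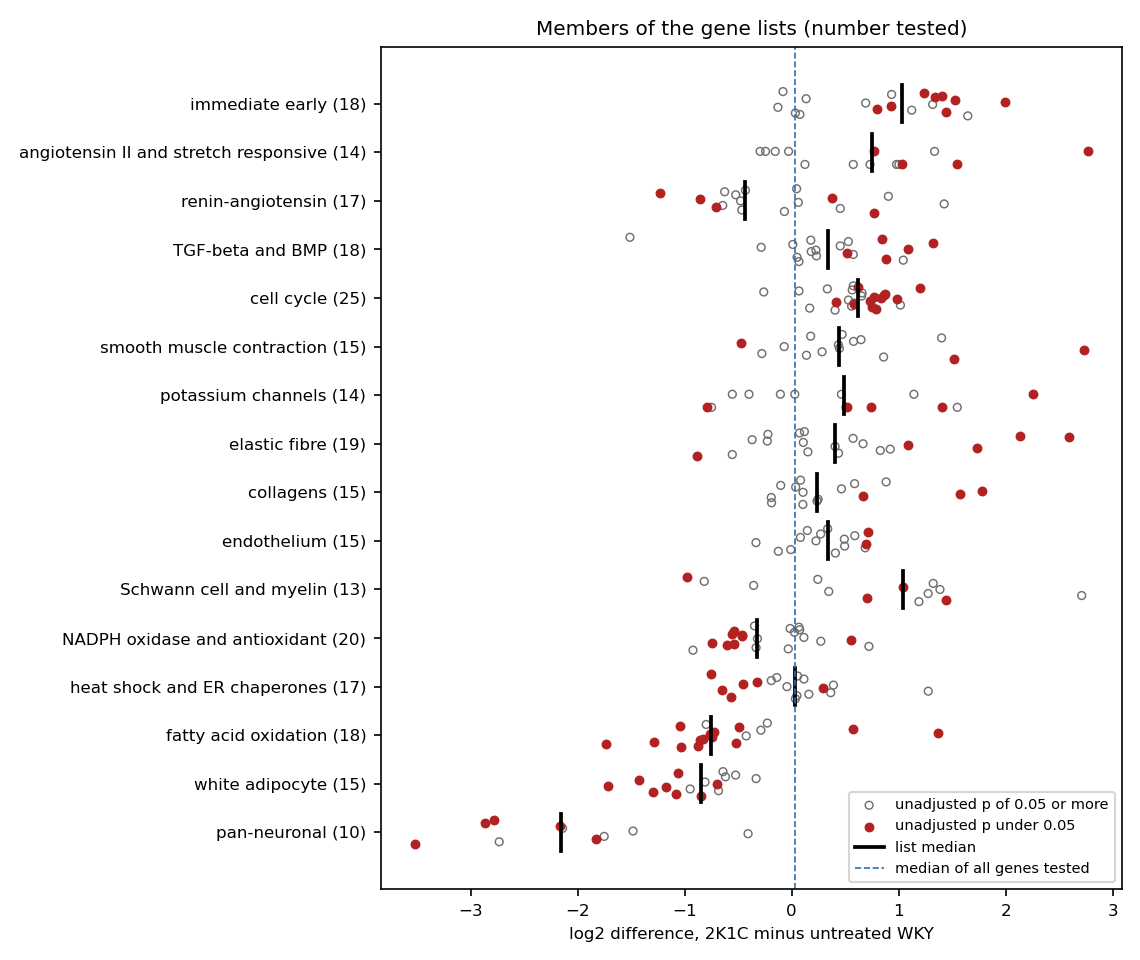
Log2 difference, 2K1C minus untreated WKY, of every tested member of 16 gene lists; filled points have an unadjusted p under 0.05, black bars are list medians and the dashed line is the median of all genes, 0.03. Immediate early genes (median 1.03) and cell cycle genes (0.62) lie mostly right of that line, and fatty acid oxidation (-0.76) and white adipocyte genes (-0.85) left of it.

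Antioxidant and NADPH oxidase genes had 7 of 20 past an unadjusted p of 0.05 against 2K1C and 1 in favour, beside 11.2% and 10.8% of all genes, with a median of -0.33. It was -0.21 without untreated WKY array 2, and 3 to 9 passed against 2K1C under the alternatives (4 without 2K1C array 4). Sod2, the mitochondrial superoxide dismutase, was at 0.99, 1.27, 1.39 and 1.16 in 2K1C, against 1.73, 1.75, 1.81 and 1.40 in untreated WKY (difference -0.47 ± 0.16, adjusted p 0.129). Nqo1, a quinone reductase under Nrf2 control, differed by -0.60 ± 0.21. Gpx1, a glutathione peroxidase, went the other way at 0.56 ± 0.20, with 5.35 ± 0.22 in 2K1C and 4.79 ± 0.12 in untreated WKY and no overlap.

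Of 17 tested of 18 heat shock and ER chaperone genes, 9 had a positive difference, up to 1.28, and the median was 0.04. An unadjusted p of 0.05 was passed by 1 in favour of 2K1C and 5 against it, beside 10.8% and 11.2% of all genes. The mitochondrial chaperone partners Hspd1 and Hspe1 differed by -0.75 ± 0.24 and -0.65 ± 0.23. Hspd1 was at 3.34, 3.55, 3.89 and 3.54 in 2K1C, against 4.18, 4.49, 4.59 and 4.06 in untreated WKY, with no overlap. Ephx2, soluble epoxide hydrolase, differed by -1.30 ± 0.45 and Ptgis, prostacyclin synthase, by 1.74 ± 0.68. Of the glucocorticoid-responsive genes, Sgk1, a kinase that mineralocorticoids also induce, differed by 0.87 ± 0.26 and the metallothionein Mt1 by 0.82 ± 0.29. No gene in these groups passed the adjusted test.

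Besides the cytokine, chemokine and adhesion list given above, immune lists showed few single-gene differences with all arrays in. None of the 8 tested B and T lymphocyte genes, 14 interferon response genes or 13 antigen presentation genes passed an unadjusted p of 0.05, and 1 of 14 macrophage genes did, against 2K1C. Of all genes, 10.8% were higher and 11.2% lower at that p. Without 2K1C array 4 and untreated WKY array 1, the macrophage median moved to -0.85 from -0.20. The B and T lymphocyte median moved to -0.55 from 0.72, and that of antigen presentation to -0.45 from 0.29. In single alternatives, 6 macrophage genes or 3 interferon response genes passed that p against 2K1C. Circadian clock genes, which follow the hour of sampling, had none of 14 past an unadjusted p of 0.05 with all arrays in. In single alternatives, up to 4 passed in favour of 2K1C or 2 against it. Their summed level was 10.6 and 14.6 on untreated WKY arrays 2 and 3, 5.93 and 5.62 on untreated WKY arrays 1 and 4, and 6.03 to 7.93 in 2K1C. Mesothelial genes, a marker of the peritoneal covering, had none of 6 tested of 10 past an unadjusted p of 0.05. Of the 6, 5 were lower in 2K1C, with a median of -1.42 that ran from -2.54 to -0.44 under the alternatives. Their summed level was 11.7 and 5.50 on untreated WKY arrays 2 and 3, 1.00 and 0.578 on untreated WKY arrays 1 and 4, and 0.580 to 6.41 in 2K1C.

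Neuronal genes had the lowest median of the 43 lists, -2.15 over 10 tested of 17. Of the 10, 5 passed an unadjusted p of 0.05 against 2K1C, beside 11.2% of all genes. Their summed level was 3.12 to 27.4 in 2K1C, against 4.14 to 193 in untreated WKY. Prph, the filament protein peripherin of peripheral nerves, was at 1.59, -1.41, -1.34 and -2.16 in 2K1C, against 4.85, 1.57, 2.52 and -0.80 in untreated WKY. The growth cone protein gene Gap43 differed by -2.17 ± 0.70. Without 2K1C array 4 and untreated WKY array 1 the median was -0.73 with no member past an unadjusted p of 0.05, and without untreated WKY array 1 alone it was -1.14 with 2. Schwann cell and myelin genes had a median of 1.05, with 3 of 13 past an unadjusted p of 0.05 in favour of 2K1C (Egr2, which the immediate early description above covers, is one) and 1 against it, S100b at -0.98 ± 0.41. The Schwann cell counts stood beside 10.8% and 11.2% of all genes. The median of that list was 0.62 and 0.66 without untreated WKY arrays 2 and 3, and 0.47 with normexp and quantile. The part of nerve or fat left on the vessel in any result was not tested.

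The other clip operation gave a direct contrast, since 2K1C and 1K1C share strain, clip and duration and differ in the second kidney. No gene passed between them (lowest adjusted p 0.073), while 3536 genes had an unadjusted p under 0.05, 947 higher (5.77%) and 2589 lower (15.8%) in 2K1C. The slides differ here too. Leaving out 1 array gave 1901 calls (without 1K1C array 4) and 296 (without 2K1C array 3), and 0 or 1 otherwise. Ier2 was 0.85 ± 0.20 (SE) higher in 2K1C than in 1K1C, and the immediate early gene Ier5 0.78 higher, each at an adjusted p of 0.073. Clcn3, a chloride-proton exchanger, was 1.07 higher and Spacdr 0.88 higher. Slain1, a microtubule plus-end protein gene, was 2.38 higher, although only 1 of the 1K1C arrays was well above background for it. Adgrb1, an adhesion receptor, was not well above background on any 1K1C array, and no fold is given for it.

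Lower in 2K1C than in 1K1C, with groups that did not overlap, were Aldh1a7, an aldehyde dehydrogenase, at -5.31, -4.31, -4.27 and -4.49 in 2K1C, against -1.44, -1.56, -2.56 and -3.17 in 1K1C. Each of these genes had an adjusted p of 0.073. Rmdn2, a microtubule regulator, differed by -1.08, Pcdh20, a protocadherin, by -1.04, Aqpep, an aminopeptidase, by -0.98 and the cochaperone Dnajc25 by -0.80. The proteasome subunit gene Psma8 was not well above background on any 2K1C array: no fold is given against 1K1C, and the bound against untreated WKY was at least 1.35-fold lower in 2K1C (adjusted p 0.0902). That bound holds only on this scale, and under the alternatives the log2 difference against untreated WKY ran from -2.39 to -0.29. Untreated WKY array 1, at -4.67, was the only untreated WKY array in the 2K1C range for Aldh1a7.

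By list, 2K1C minus 1K1C had medians of 0.91 for immediate early genes (0.58 with normexp and quantile) and 1.42 for smooth muscle contraction. Those of white adipocyte and fatty acid oxidation genes were -1.39 and -0.86. An unadjusted p of 0.05 in favour of 2K1C was passed by 10 of 18 immediate early and 10 of 15 smooth muscle genes, and 0 passed against it. Against 2K1C, 15 of 15 white adipocyte genes passed and 0 in favour. Of 18 fatty acid oxidation genes, 14 passed against 2K1C and 2 in favour. Of all genes, 5.77% were higher and 15.8% lower in this contrast. The white adipocyte gene Retn was at 3.50, 4.32, 4.93 and 4.49 in 2K1C, against 5.81, 6.37, 5.77 and 5.59 in 1K1C. The 1K1C group had its own wide spread, with smooth muscle contraction genes summing to 79.3 on 1 array and to 255 to 468 on the others, and white adipocyte genes to 491 to 1207. The smooth muscle median was 0.66 without 1K1C array 2. Against untreated WKY, which both operations share as their reference, the medians in 1K1C were 0.04 for immediate early genes, -0.81 for smooth muscle contraction, 0.46 for white adipocyte genes and 0.09 for fatty acid oxidation, beside 1.03, 0.45, -0.85 and -0.76 in 2K1C. No gene passed in 1K1C against untreated WKY either, where 1493 had an unadjusted p under 0.05; leaving out untreated WKY array 4 gave 205 calls there, and the other arrays 0 to 3.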

How the data were processed

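The 20 arrays (5 groups of 4) each held total RNA of whole mesenteric artery in 1 colour on Agilent 60-mer probes annotated on build rn4, with 62976 spots, of which 4259 were controls. The authors deposited, per the file headers, spot intensity after spatial background subtraction and multiplicative detrending and without scaling between arrays; Agilent Feature Extraction 10.7.3.1 is named per the submitters' processing notes. The deposited value table equalled these processed signals.

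Outlier spots were left out, spots of a probe were averaged, and the log2 intensity was set relative to the 75th percentile of the array's non-control spots. A probe was kept if any group had it well above background on all of its 4 arrays (18899 probes), and the probe with the highest mean stood for each of 16410 genes. Of 30367 probes, 18355 (60.44%) took a current symbol through RefSeq of build GRCr8, and the others kept the name in the files. All 5 groups entered 1 limma 3.58.1 fit (lmFit, eBayes, R 4.3.3), two-sided, with Benjamini-Hochberg adjustment over all genes and calls at an adjusted p under 0.05. The same code was tested on simulated data. At 4 arrays per group, the number of arrays limits the precision.

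Named genes were the called ones, the 12 in each direction with the strongest moderated statistic among genes whose groups did not overlap, up to 3 per list, and renin-angiotensin, endothelin, Eln and Nos3 by name. The members and the 43 lists were chosen with earlier results of these data known. A summed level adds the linear signal of a list's tested genes, each over the array's 75th percentile. The alternatives covered scaling, background, filters, probes, groups in the fit, array weights, the prior, a replicate block and single arrays. Leaving out 2K1C array 4 with untreated WKY array 1, and array weights in the 3 WKY groups, were chosen after seeing the data. Some named genes are not reported here.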

Additional observations from a re-analysis of the deposited data

Results flagged for a closer look

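A single array was singled out where its gap to the nearest of the other 3 arrays, divided by the range of the group, exceeded Dixon's 95% limit for 4 values. This was met 8 times among 220 gene groups and 4 times among 86 list means, and chance alone gives about 1 in 20 groups. No explanation is weighed here.

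On 2K1C arrays, Car8 on array 1 (-2.96), Tmem199 on array 3 (-3.02), Notch1 on array 1 (1.21), Nqo1 on array 4 (-3.57) and Agtr1b on array 4 (-4.57) lay far from the rest of their group. On untreated WKY arrays, Fgd3 on array 1 (-1.03), Mki67 on array 4 (-0.37) and Hspe1 on array 4 (4.44) did. Of the list means, the endothelial mean of 2K1C array 4 was -0.24, and the noradrenergic mean was 0.50 on 2K1C array 1 and 3.23 on untreated WKY array 1. The pan-neuronal mean of 2K1C array 1 was 0.040. All values are log2 levels over the array's 75th percentile.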

How the results depend on the processing

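Between 2K1C and untreated WKY the count of 2 called genes was 8 with quantile normalization and 69 with normexp and quantile. It was 0 on unscaled deposited values, with only the 2 groups compared and with the 3 WKY groups, and 1 with a trended and robust prior. It was 4986 with array weights, 4368 with those weights in the 3 WKY groups, 6 without 2K1C array 4 and untreated WKY array 1, and 0 to 872 when 1 array was left out. At an unadjusted p under 0.05 the counts of those 3 settings without a call were 3431, 2660 and 2924. Between 2K1C and 1K1C the count of 0 was 364 with array weights and 0 to 1901 with 1 array left out, and between 1K1C and untreated WKY it was 2 unscaled, 472 with array weights and 0 to 205 with 1 array left out. The cause of these shifts was not tested, other than that the fits with fewer groups hold fewer arrays. Without scaling, the median of all genes in 2K1C minus untreated WKY moved to -0.19, against 0.03, and on that scale Ednrb was at -0.011 and Edn1 at -0.10. With single arrays left out, Edn1 ran from -0.020 to 0.33. No other named gene turned its direction in 2K1C minus untreated WKY under the alternatives run. Replicate numbers did not pair the arrays: same-numbered 2K1C and untreated WKY arrays had deviations that correlated at 0.24, -0.02, 0.01 and 0.04, and the replicate block gave 2 calls, A_64_P035381 again and not Ier2 (adjusted p 0.0537). With that block 0 genes passed between 2K1C and 1K1C and 0 between 1K1C and untreated WKY (3590 and 1513 at an unadjusted p under 0.05). Slide and operation cannot be told apart for 2K1C, and background limits the dimmest genes, such as Zfp36, Tbcel and Psma8.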
